A study of Mus musculus with 12 samples.

Results

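Heme synthesis genes were followed in monocytes and macrophages purified from mouse bone marrow, with and without leukemia. They comprised 9 of the 30827 named genes on the array: Alas2 and Alas1, the erythroid and the housekeeping form of the first enzyme, then Alad, Uros, Urod, Cpox, Ppox and Fech, and Slc25a37, which brings iron into the mitochondrion. Not every step of the pathway is analysed here. Members were chosen by name. Each of the 9 was found by its platform symbol or current alias, each had 1 transcript cluster (the probes that the array summarises for 1 gene), and all 9 passed the filter on low values.

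Heme is made in part in the mitochondrion and in part in the cytosol, starting from glycine and succinyl-CoA and ending with the insertion of iron into protoporphyrin. Every cell makes heme for its cytochromes, but in bone marrow most of it is made by erythroblasts, which need it for hemoglobin. Erythroblasts use Alas2, an X-linked gene whose mRNA is also under the control of cellular iron, whereas cells in general use Alas1, which heme itself represses. The enzymes after the first are shared by all cells and are raised in erythroblasts.

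All mice were Rag2-/-gamma c-/- on a BALB/c background, so controls and leukemic mice alike lacked mature lymphocytes of their own. Leukemia came from intravenous injection of MEC1, human B cells established as a line from a chronic lymphocytic leukemia, and age-matched mice without MEC1 were the controls. There were 3 mice per group: MEC1 at 21 days and none at 21 days, aged 11 weeks, and MEC1 at 31 days and none at 31 days, aged 13 weeks. The days were the early and the late stage of the leukemia, and each array held the cells of 1 mouse after magnetic separation, whose marker is not given in the sources used here. Values are log2 intensities, on which a difference of 1 is a doubling, and levels of different genes are not compared because probes differ in brightness. The number of arrays limits the precision.

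Genes of other marrow cells were bright on these arrays beside those of macrophages. Averaged over 10 monocyte and macrophage markers, the log2 intensity lay between 10.29 and 10.70 in MEC1 mice and between 11.15 and 11.31 in control mice at 21 days, and between 9.31 and 10.69 in MEC1 mice and between 11.30 and 11.33 in control mice at 31 days. Averaged over 14 erythroid markers that are no heme enzymes, it lay between 6.55 and 10.20 in MEC1 mice and between 10.04 and 11.78 in control mice at 21 days. At 31 days the same erythroid average lay between 5.17 and 6.02 in MEC1 mice, where 4 of the 14 markers were within 1 of the array median, and between 11.10 and 11.79 in control mice. The spike-in hybridisation controls also differed, at 11.80 to 12.04 in MEC1 mice and 10.71 to 10.87 in control mice at 21 days, and at 12.15 to 13.18 in MEC1 mice and 10.47 to 10.70 in control mice at 31 days. MEC1 replicate 3 at 31 days stood apart, with the 9.31 above and with 12.18 over 10 neutrophil markers, where the other mice of all groups had at least 13.80. The part of the erythroid and other cell markers in the results below was not tested. In such bulk samples, fewer cells of a type and less RNA per cell cannot be told apart.

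Of the 9 heme genes, 8 were lower with MEC1 at 31 days and 1, Alas2, at 21 days (limma, adjusted p under 0.05 over 37240 clusters). The gene that did not pass on either day was Alas1. Among all clusters tested, 21.1% were called lower and 22.6% higher at 31 days, and 2.51% were called lower and 1.83% higher at 21 days. The median change over the 9 genes was -2.0 at 21 days and -4.06 at 31 days on the log2 scale, beside 0.02 and 0.043 over all clusters. Brightness on the control arrays of the same comparison went with the change: at 31 days, clusters with a control level between 10 and 12, where Alas2, Urod, Cpox, Fech and Slc25a37 lie, had a median change of -1.06, and 56.6% of them were called lower. The changes of these genes at 31 days ran between -4.74 and -2.82. Between 14 and 16, the class of Alad, the median was -0.75 with 36.9% called lower. Between 6 and 8, the class of Uros and Alas1, it was -0.59 with 41.7% called lower, beside changes of -1.89 for Uros and -0.46 for Alas1.

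**Figure D1:**
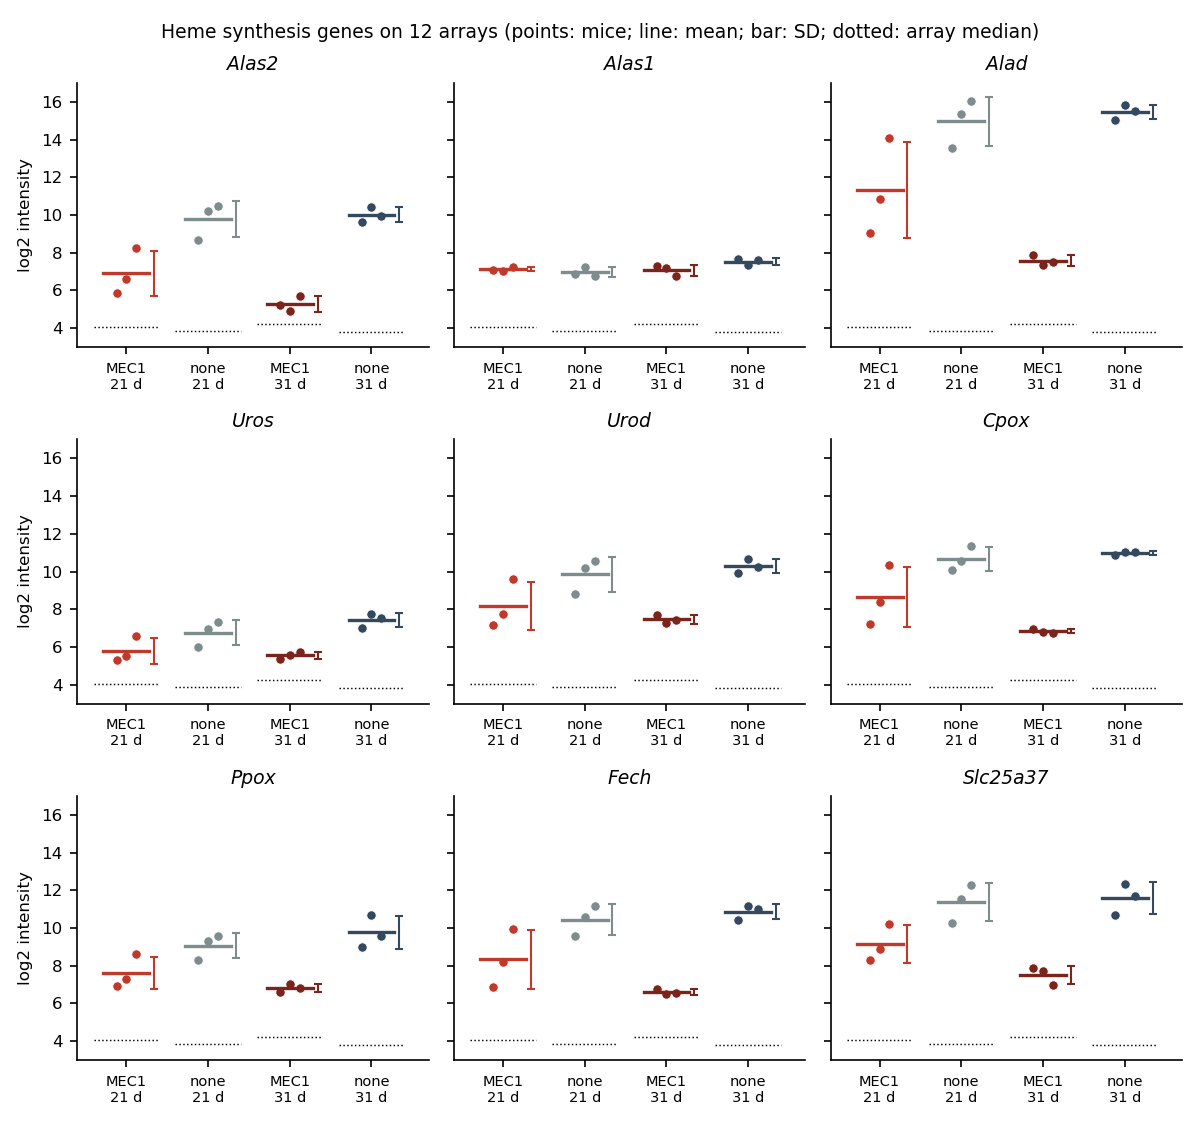
Log2 intensity of each of the 9 heme genes (vertical axis) in the 4 groups, MEC1 left of none at 21 and at 31 days. Points are mice (3 per group), lines are means, bars are SD and dotted lines are the array medians. In 8 panels the MEC1 mice at 31 days lie well below the controls, the MEC1 mice at 21 days are spread more widely, and the Alas1 panel is nearly level.

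Alas2 condenses glycine with succinyl-CoA in the mitochondrial matrix and sets the rate of heme synthesis in erythroid cells. Its log2 intensity was 5.85, 6.62 and 8.23 in MEC1 mice at 21 days, against 8.67, 10.19 and 10.46 in mice without MEC1. On day 31 it was 5.21, 4.89 and 5.71 in MEC1 mice, against 9.65, 10.44 and 9.93 in mice without MEC1. The groups did not overlap on either day, and the MEC1 mouse with the highest value at 21 days lay 0.44 below the lowest control. Alas2 fell by 2.87 at 21 days (SE 0.59, 7.33-fold, limma adjusted p = 0.0288) and by 4.74 at 31 days (SE 0.59, 26.7-fold, adjusted p = 0.000548). In MEC1 mice at 31 days it averaged 1.03 above the array median.

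Alas1 catalyses the same reaction in cells of every kind. Log2 intensities were 7.10, 7.03 and 7.25 in MEC1 mice at 21 days, against 6.88, 7.25 and 6.75 in mice without MEC1. By 31 days the values were 7.29, 7.19 and 6.75 in MEC1 mice, against 7.65, 7.33 and 7.62 in mice without MEC1. The groups overlapped at 21 days and were 0.04 apart at 31 days. The change was 0.17 at 21 days (95% interval -0.25 to 0.58, limma adjusted p = 0.603) and -0.46 at 31 days (interval -0.87 to -0.04, adjusted p = 0.0702), and neither passed. With every array centred on its own median, the change at 31 days was -0.89 and passed (limma adjusted p = 0.012). The array medians that day were 4.13 to 4.40 in MEC1 mice and 3.80 to 3.81 in control mice, so centring lowers every gene in MEC1 mice. In that setting 44.4% of all clusters were called, and 16.9% of these calls were higher.

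The difference between both Alas genes was then taken within each array, which compares their changes and not their abundance. Alas2 minus Alas1 was -1.25, -0.41 and 0.98 in MEC1 mice at 21 days, against 1.79, 2.94 and 3.71 in mice without MEC1. At 31 days it was -2.08, -2.30 and -1.04 in MEC1 mice, against 2.00, 3.11 and 2.31 in mice without MEC1. Every MEC1 mouse lay below every control mouse of its day. Averaged over both days the difference changed by -3.66 with MEC1 (SE 0.499, exact permutation within days, two-sided p = 0.005, the smallest that 400 relabelings can give). The change was -3.04 at 21 days and -4.28 at 31 days (exact permutation p = 0.1 each, the smallest possible with 3 against 3 mice).

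**Figure D2:**
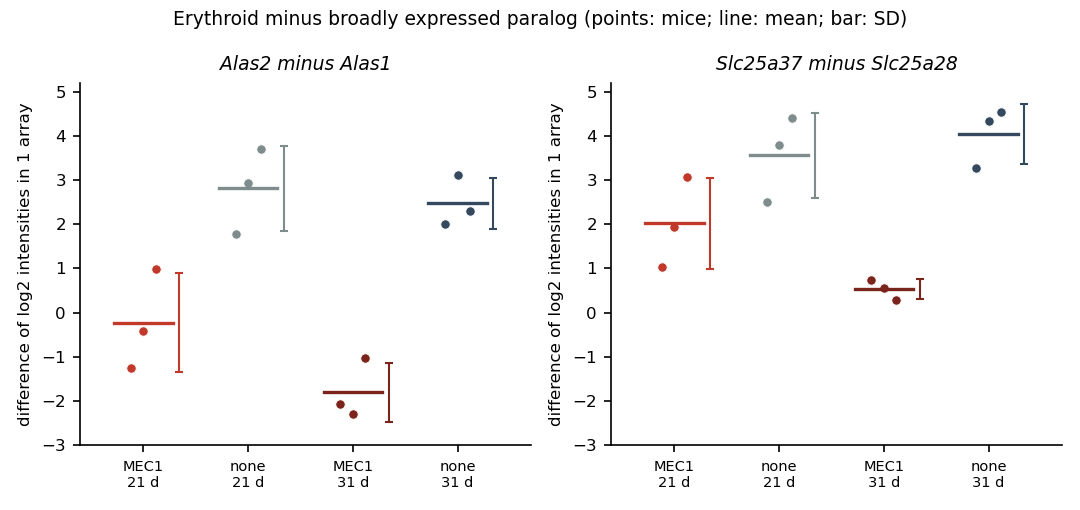
Difference of log2 intensities within 1 array (vertical axis) for Alas2 minus Alas1, left, and Slc25a37 minus Slc25a28, right, with MEC1 left of none at 21 and at 31 days. Points are mice, lines are means and bars are SD. The sign of a value has no meaning across probes: what can be read is the shift between groups, -3.66 and -2.54 on average over both days.

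The promoters of both Alas genes are shown because the transcripts moved apart. The 250 bases before the RefSeq start, on the gene's strand of GRCm38.p6, lie at chrX:150547167-150547416 (plus strand) for Alas2 and at chr9:106247955-106248204 (minus strand) for the first listed start of Alas1. Capitals mark the letters of the GATA motif, searched on both strands as GATA with A or T before it and A or G after it.
Alas2 promoter: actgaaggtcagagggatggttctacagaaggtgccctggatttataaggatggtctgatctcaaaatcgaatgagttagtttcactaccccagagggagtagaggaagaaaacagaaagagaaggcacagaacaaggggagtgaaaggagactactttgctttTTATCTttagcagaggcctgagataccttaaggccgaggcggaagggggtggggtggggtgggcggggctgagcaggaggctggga
Alas1 promoter: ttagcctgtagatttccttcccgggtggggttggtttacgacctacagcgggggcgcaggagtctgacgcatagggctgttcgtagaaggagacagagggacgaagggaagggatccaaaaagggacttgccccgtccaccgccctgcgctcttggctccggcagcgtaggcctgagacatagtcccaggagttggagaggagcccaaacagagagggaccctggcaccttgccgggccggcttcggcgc
The Alas2 window holds 1 such match, at -86 to -81 from the start and read on the other strand, and the Alas1 window has none. These letters occur in 26.5% of the 32851 windows of all genes, so a match describes the sequence and shows no binding. The CACCC letters CCNCNCCC, where N is any base, occur 4 times in the Alas2 window, partly overlapping each other. They occur 1 time in the Alas1 window shown. The window of the second listed start of Alas1, not shown, has 2 CACCC matches and 0 GATA matches. CACCC letters are present in 45.9% of all windows.

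Windows of 7 of the 9 genes were used, 10 windows in all. GATA letters were present in 3 of these windows, among them those of Alas2 and Cpox. The site of Cpox is shown with 30 bases, from chr16:58670105-58670134 (plus strand), and capitals again mark the motif.
Cpox site: tgactaaagcgcCTATCTTATCAgtccaag
In Cpox a pair of matches overlaps by 1 base, at -91 to -86 and at -86 to -81. The windows of Alad, Urod and Ppox, whose transcripts were also lower at 31 days, have none of these letters in the stretch searched. CACCC letters were present in 6 of the 10 windows.

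Alad, the cytosolic enzyme that joins a pair of aminolevulinic acid molecules into porphobilinogen and the target of lead poisoning, had the widest range of the 9 genes. The log2 intensity of Alad was 9.07, 10.87 and 14.08 in MEC1 mice at 21 days, against 13.54, 15.33 and 16.05 in mice without MEC1. At 31 days the values were 7.90, 7.33 and 7.53 in MEC1 mice, against 15.04, 15.81 and 15.52 in mice without MEC1. The groups overlapped at 21 days through a single MEC1 mouse and were 7.14 apart at 31 days. The change was -3.63 at 21 days (SE 1.02, limma adjusted p = 0.0692), which did not pass, and at 31 days Alad fell by 7.87 (SE 1.02, 234-fold, adjusted p = 0.000559).

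Uros closes the linear tetrapyrrole into the ring of uroporphyrinogen. Its log2 intensity was 5.29, 5.51 and 6.58 in MEC1 mice at 21 days, against 6.01, 6.93 and 7.30 in mice without MEC1. On day 31 it was 5.35, 5.58 and 5.72 in MEC1 mice, against 7.03, 7.75 and 7.54 in mice without MEC1. Among the 8 genes that passed at 31 days, Uros had the smallest change. It was -0.95 at 21 days (SE 0.382, limma adjusted p = 0.168), and at 31 days Uros fell by 1.89 (SE 0.382, 3.71-fold, adjusted p = 0.00398). In MEC1 mice at 31 days it averaged 1.31 above the array median.

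Urod removes carboxyl groups from the ring and is the last of the cytosolic enzymes. Log2 intensities were 7.18, 7.73 and 9.60 in MEC1 mice at 21 days, against 8.79, 10.20 and 10.56 in mice without MEC1. By 31 days the values were 7.70, 7.26 and 7.43 in MEC1 mice, against 9.93, 10.65 and 10.26 in mice without MEC1. The groups overlapped at 21 days and lay 2.23 apart at 31 days. The change was -1.68 at 21 days (SE 0.582, limma adjusted p = 0.121), and at 31 days Urod fell by 2.82 (SE 0.582, 7.05-fold, adjusted p = 0.00441).

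The last enzymes act in the mitochondrion. Cpox, coproporphyrinogen oxidase, had a log2 intensity of 7.22, 8.37 and 10.36 in MEC1 mice at 21 days, against 10.06, 10.56 and 11.33 in mice without MEC1. At 31 days the values were 6.95, 6.78 and 6.75 in MEC1 mice, against 10.86, 11.05 and 11.06 in mice without MEC1. The mice of each group lay close together at 31 days, and the groups were 3.91 apart. Cpox had a change of -2.0 at 21 days without passing (SE 0.612, limma adjusted p = 0.0885) and fell by 4.16 at 31 days (SE 0.612, 17.9-fold, adjusted p = 0.000942).

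Ppox, which oxidises protoporphyrinogen to protoporphyrin, had a log2 intensity of 6.95, 7.32 and 8.60 in MEC1 mice at 21 days, against 8.33, 9.32 and 9.56 in mice without MEC1. On day 31 it was 6.60, 7.04 and 6.80 in MEC1 mice, against 9.01, 10.70 and 9.58 in mice without MEC1. A single MEC1 mouse exceeded the lowest control at 21 days, and none did at 31 days. The change was -1.45 at 21 days (SE 0.503, limma adjusted p = 0.122), and at 31 days Ppox fell by 2.95 (SE 0.503, 7.73-fold, adjusted p = 0.0018).

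Fech, ferrochelatase, inserts ferrous iron into protoporphyrin and so makes heme. Its log2 intensity was 6.86, 8.21 and 9.96 in MEC1 mice at 21 days, against 9.55, 10.61 and 11.17 in mice without MEC1. By 31 days the values were 6.78, 6.49 and 6.55 in MEC1 mice, against 10.44, 11.19 and 10.99 in mice without MEC1. The pattern was that of Cpox: an overlap through 1 MEC1 mouse at 21 days and a wide gap, 3.66, at 31 days. The change was -2.10 at 21 days (SE 0.642, limma adjusted p = 0.0884), and at 31 days Fech fell by 4.27 (SE 0.642, 19.2-fold, adjusted p = 0.00105).

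Slc25a37, mitoferrin-1, supplies the iron that ferrochelatase uses in erythroid cells. Log2 intensities were 8.28, 8.91 and 10.23 in MEC1 mice at 21 days, against 10.27, 11.56 and 12.28 in mice without MEC1. At 31 days the values were 7.86, 7.72 and 6.97 in MEC1 mice, against 10.67, 12.35 and 11.72 in mice without MEC1. The groups did not overlap on either day, with a gap of 0.04 at 21 days. The change was -2.23 at 21 days (SE 0.614, limma adjusted p = 0.0659), and at 31 days Slc25a37 fell by 4.06 (SE 0.614, 16.7-fold, adjusted p = 0.00106).

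The broadly expressed mitoferrin-2, Slc25a28, is no member and serves as the counterpart of Slc25a37. It had a change of -0.68 at 21 days (limma adjusted p = 0.0958) and of -0.53 at 31 days (adjusted p = 0.0644), which did not pass, and fell by 0.61 on the average of both days (adjusted p = 0.00897). Slc25a37 minus Slc25a28 within an array was 1.04, 1.94 and 3.08 in MEC1 mice at 21 days, against 2.51, 3.79 and 4.40 in mice without MEC1. At 31 days it was 0.73, 0.56 and 0.28 in MEC1 mice, against 3.28, 4.34 and 4.54 in mice without MEC1. The groups overlapped at 21 days and not at 31 days. The average change over both days was -2.54 (SE 0.455, exact permutation within days, two-sided p = 0.01), with -1.55 at 21 days (exact p = 0.2) and -3.53 at 31 days (exact p = 0.1).

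**Figure D3:**
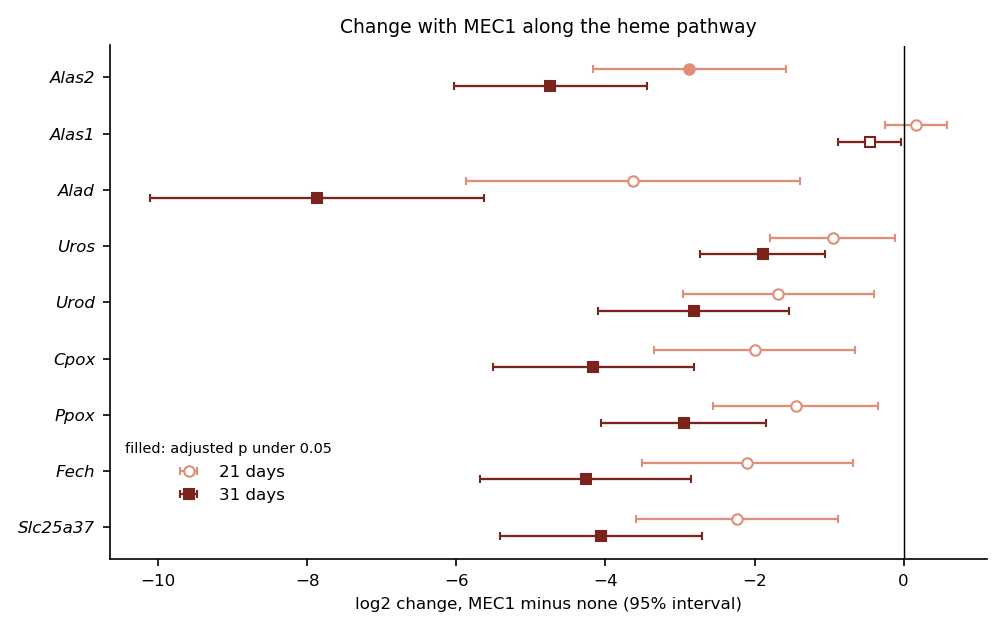
Log2 change, MEC1 minus none (horizontal axis), of the 9 heme genes in pathway order, with 95% intervals from limma; circles are 21 days, squares are 31 days, and filled symbols passed at an adjusted p under 0.05. At 31 days 8 genes lie between -7.87 and -1.89 and Alas1 at -0.46; at 21 days only the Alas2 symbol is filled.

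Averaged over both days, the same count of 8 of 9 genes passed as lower, beside 23.3% of all clusters, and Alas1 had a change of -0.15 (95% interval -0.44 to 0.15, limma adjusted p = 0.377). With every array centred on its median, the average change of Alas1 was -0.46 and passed (limma adjusted p = 0.0403), so that 9 of 9 genes were lower both on average and at 31 days. This centring called 47.9% of all clusters on average, 17.6% of those calls being higher. At 31 days it called 44.4%, with 16.9% of the calls higher. MEC1 and control mice did not overlap, with MEC1 lower, for 9 of 9 genes at 31 days and 2 of 9 at 21 days, where 28.4% and 13.7% of all clusters had such groups. The test of the difference between the days, 31 minus 21 days, passed for 0 of the 9 genes (limma), although 5 had an unadjusted p under 0.05, and it passed for 0.00269% of all clusters. With array weights it passed for 1, and for 4.22% of all clusters. For Alad this difference was -4.24 (95% interval -7.41 to -1.06, adjusted p = 0.333) and for Alas2 -1.86 (interval -3.70 to -0.03, adjusted p = 0.388). The larger changes at 31 days are therefore not shown to differ from those at 21 days.

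Time alone was compared within mice of the same kind. In MEC1 mice, 31 against 21 days, 0 of 9 genes passed (limma) and 5 had an unadjusted p under 0.05, with 0.226% of all clusters called. With array weights 5 passed, as did 20.8% of all clusters. The largest such change was that of Alad, -3.75 (95% interval -6.0 to -1.51, adjusted p = 0.135). In mice without MEC1, 0 of 9 passed and 1, Alas1, had an unadjusted p under 0.05, with 0.00806% of all clusters called. Alas1 was 0.57 higher at 31 days in these mice (interval 0.16 to 0.99, adjusted p = 0.508), a difference in the controls alone that did not pass.

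The mice at 21 days differed from each other along the whole pathway. Among the 8 genes other than Alas1, MEC1 replicate 3 was the highest of its group in 8 of 8 and MEC1 replicate 1 the lowest in 8 of 8. Among the controls of that day, replicate 3 was likewise the highest and replicate 1 the lowest in 8 of 8. The mean of the 8 genes was 7.09, 7.94 and 9.71 in these MEC1 mice, against 9.40, 10.59 and 11.09 in mice without MEC1. The erythroid markers ranked the mice alike, with means of 6.55, 7.40 and 10.20 in MEC1 mice, against 10.04, 11.28 and 11.78 in mice without MEC1. Without MEC1 replicate 3, 8 genes passed at 21 days (Alad at -5.00, limma adjusted p = 0.00548), beside 7.74% of all clusters in either direction. Without MEC1 replicate 1 or 2, or control replicate 2 or 3, 0 passed (limma), beside 0.886% to 1.24% of all clusters. Without control replicate 1 the count was 2, beside 2.8% of all clusters, and with the 6 arrays of that day alone it was 0, beside 1.22%. With array weights it was 8, beside 42.8% of all clusters. At 31 days, 8 genes passed whichever array was left out, beside 28.6% to 45.2% of all clusters in either direction. The MEC1 mice were close together there, with means of 6.79, 6.64 and 6.68, against 10.33, 11.24 and 10.83 in mice without MEC1.

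The level of the hybridisation controls moved with the groups. When it was added to the fit as a covariate, 0 of 9 genes passed at 21 days, at 31 days or on average. Of all clusters, 0.0107%, 0.0188% and 0.0161% were then called, so nearly every call on the array was lost. Of the variance of that level, 92.15% lies between the 4 groups, so the covariate and the groups largely cannot be told apart. The changes at 31 days were then -5.20 for Alas2, -6.19 for Alad, -3.04 for Cpox and -3.12 for Fech.

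The genes whose profile over the 12 arrays was closest to that of Alas2 were Nxpe2, Tspan8, Ank1, Tspan33 and Zfpm1, at root mean square differences of 0.30 to 0.40 after each profile was centred on its mean. Ank1 encodes the red cell membrane anchor ankyrin and is among the erythroid markers above. Zfpm1 encodes FOG1, a partner of GATA1. Among the heme genes themselves, Fech was nearest to Alas2 at 0.41, Cpox followed at 0.51 and Slc25a37 at 0.54, while Alad, with its wider range, was at 1.37 and Alas1 was at 2.04. The closest profiles to Alas1 were those of Pygb, Aamdc, Bace1, Dnmbp and Pdxp, at 0.14 to 0.16. These likenesses, out of 13732 candidates, rest on 12 arrays that share the group differences.

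Genes that work beside the pathway were described in lists. Over all clusters, 2.51% were called lower at 21 days and 21.1% at 31 days. At 31 days the share called lower was 41.7% to 56.6% among clusters with a control level between 6 and 12. Of 13 mitochondrial partners measured, 8 were lower at 31 days and 1, the transporter Abcb10, at 21 days, with median changes of -1.72 and -0.77. Glrx5, which acts in the making of iron-sulfur clusters, fell by 4.17 at 31 days, and Tmem14c, which carries protoporphyrinogen, fell by 3.04. Slc25a38, the glycine carrier of erythroid heme synthesis, fell by 1.89, whereas Clpx, a matrix unfoldase that acts on the Alas enzymes, had a change of 0.18 (limma adjusted p = 0.389).

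Of 10 genes of iron uptake and sensing, 7 were lower at 31 days and 3 at 21 days. Tfrc, the transferrin receptor, fell by 2.17 at 21 days (limma adjusted p = 0.0418) and by 3.96 at 31 days (adjusted p = 0.000559). Of 7 tested genes of heme degradation and export, 4 were lower at 31 days and 0 at 21 days, where 5 had an unadjusted p under 0.05. Hmox1, the heme oxygenase that macrophages use to break heme down, had a change of -0.12 at 21 days (adjusted p = 0.778) and of -0.11 at 31 days (adjusted p = 0.72) and did not pass.

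Of 9 tested regulators, 8 were lower at 31 days and 2 at 21 days. Klf1, an erythroid transcription factor, fell by 3.98 at 31 days (limma adjusted p = 0.0015). Eif2ak1, the heme-regulated kinase that slows translation when heme is short, fell by 1.59 at 21 days (adjusted p = 0.0205) and by 2.50 at 31 days (adjusted p = 0.000489). Bach1, the heme-binding repressor of Hmox1, fell by 1.51 at 21 days (adjusted p = 0.00595) and by 1.26 at 31 days (adjusted p = 0.0016). Gata1 fell by 0.70 at 31 days (limma adjusted p = 0.012). Its cluster was faint, on average 1.68 above the array median in control mice and 0.55 in MEC1 mice that day. Klf1 and Zfpm1 averaged 5.13 and 6.02 above it in control mice. Gata1 thus had less room to fall, and the sizes of these changes are not compared.

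Marker lists moved as well. Their counts stand beside 2.51% of all clusters called lower at 21 days and 21.1% at 31 days. By control level at 31 days, 56.6% were called lower between 8 and 12 and 48.0% between 12 and 14. Between 14 and 16 it was 36.9%, and over 16 it was 20.4%. The 14 erythroid markers had median changes of -3.09 at 21 days, when 6 were lower, and -6.62 at 31 days, when 14 were. Of 10 monocyte and macrophage markers, 2 were lower at 21 days and 7 at 31 days, when 1, Mertk, was higher. Mertk was faint: relative to the array median it averaged 0.95 in MEC1 mice and -0.32 in control mice at 31 days. Its change was 1.70 that day. Clusters with a control level up to 4, the class of Mertk, had a median change of 0.54, and 50.8% were called in either direction. Of 10 neutrophil markers, 0 passed at 21 days, where 0 had an unadjusted p under 0.05 (limma), and 5 were lower at 31 days. The mean of the neutrophil markers at 31 days was 14.84, 14.70 and 12.18 in MEC1 mice, against 15.36, 14.94 and 14.97 in control mice. The fall of this mean thus lay largely in MEC1 replicate 3, but single markers differed. Ly6g was 5.95, 6.10 and 4.88 in MEC1 mice, against 8.84, 8.03 and 7.66 in control mice. For Elane, Mpo, Prtn3 and Ltf, too, every MEC1 mouse lay below every control mouse at 31 days. S100a8, S100a9, Camp and Retnlg lay above every control in MEC1 replicates 1 and 2 and below every control in replicate 3. Ngp overlapped.

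**Figure D4:**
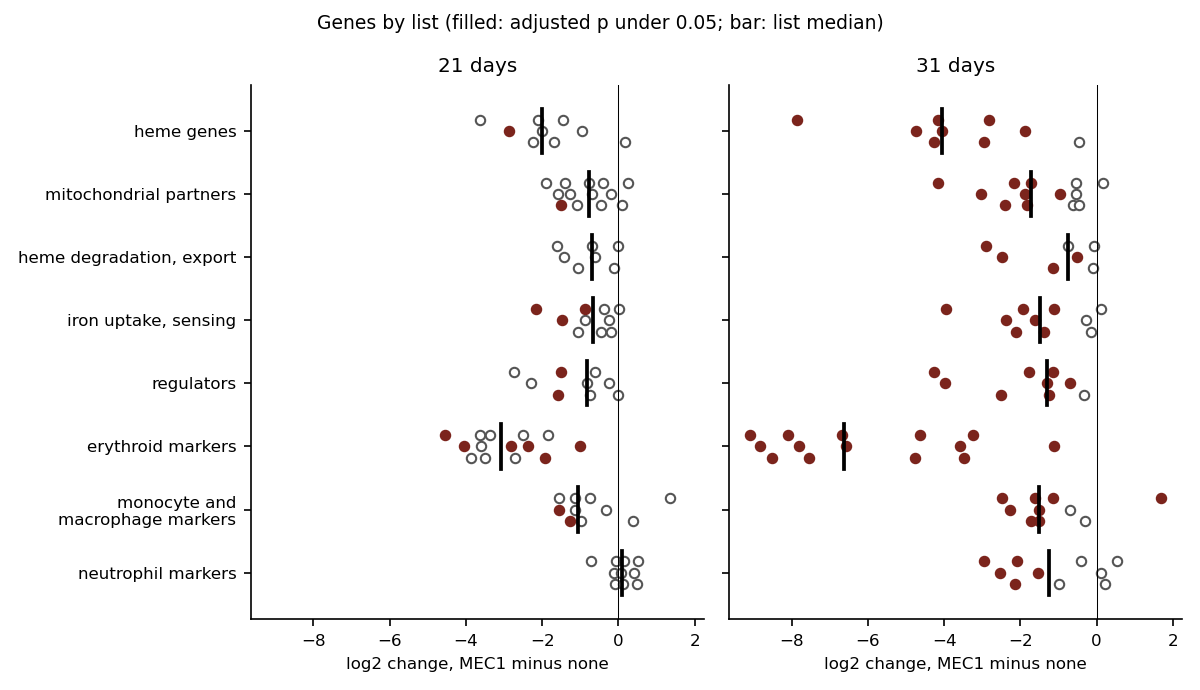
Log2 change, MEC1 minus none (horizontal axis), of the genes of 8 lists at 21 days, left, and 31 days, right. Each point is a gene, filled where the adjusted p was under 0.05, and the bar is the list median. The heme genes have medians of -2.0 and -4.06, further down than those of the partner lists, and the erythroid markers lie lowest, at -3.09 and -6.62.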

How the data were processed

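RNA of 12 mice had been hybridised to mouse Clariom D arrays, 1 per mouse. The deposited values are log2 intensities per transcript cluster, between 1.66 and 19.93. The submitters' processing notes list Affymetrix Expression Console and RMA for them. Versions and the genome build are not given in the sources used here. Of 72688 features, 6732 controls were left out. Of the 65956 clusters, 31388 had 1 symbol, 1362 several and 33206 none, and 1611 symbols were updated through RefSeq. For each symbol, the cluster with the highest mean over 12 arrays was used. Clusters above their array's median in at least 3 arrays, 37240 in all, were fitted with limma 3.58.1 in R 4.3.3 (4 group means, two-sided, Benjamini-Hochberg adjustment over all tested clusters, threshold 0.05). Differences between paired genes were tested by exact permutation within days.

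The named genes were all members, genes of the context and marker lists, and the 5 closest profiles to Alas2 and to Alas1. Members and lists were chosen with earlier results of these data known. RefSeq windows of GRCm38.p6 gave the promoters, and 1 further site is not reported here. The fit was tested on simulated data. Alternatives were filters, quantile or median scaling, array weights, trend and robust moderation, the hybridisation covariate, a replicate block, the 6 arrays of a comparison, cluster means and leaving out each array.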

Additional observations from a re-analysis of the deposited data

How the results depend on the processing

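None of the 774 recomputed changes of single genes turned direction after passing: 733 stayed on their side of the threshold, 22 no longer passed and 19 newly passed. Many of them could not turn. Other filters, trend and robust moderation, the replicate block, the 6 arrays alone and cluster means leave a change as it is. Leaving out an array of the other day does so too for the change on 1 day. In these settings only the p can move. Counts of heme genes are given with the share of all clusters called in the same setting. At 21 days, where 1 passed, the count was 2 with a filter at the 70th percentile (8.33%) and 8 with array weights (42.8%). It was 0 with the hybridisation covariate (0.0107%), 0 with the 6 arrays alone (1.22%), and 0 to 8 when 1 array was left out (0.886% to 7.74%). At 31 days and on average, where 8 passed, it was 0 with the covariate (0.0188% and 0.0161%). It was 9 with median centring, which added Alas1 (44.4% and 47.9%). Whichever array was left out, it was 8 (28.6% to 45.2% at 31 days and 38.7% to 51.0% on average). For the difference between days, where 0 passed, array weights gave 1 (4.22%), and for 31 against 21 days with MEC1, where 0 passed, they gave 5 (20.8%). The cause was not tested, except that 92.15% of the covariate's variance lies between groups. Replicate numbers were not treated as pairs in the main fit. Same-numbered mice correlated at 0.363, -0.169 and 0.415 at 21 days and at -0.011, 0.16 and 0.018 at 31 days. Different-numbered mice correlated between -0.49 and 0.328 at 21 days and between -0.153 and 0.107 at 31 days. Whether same-numbered mice shared an effect at 21 days was not tested. With the replicate block the counts stayed at 1, 8 and 8 for 21 days, 31 days and the average, and at 0 for the others. Beside the first 3 counts, 2.23%, 38.9% and 44.1% of all clusters were called. Each group holds every replicate number once, so the block cannot move a change or a difference between paired genes, only its p. Left-out arrays moved the differences between paired genes, -3.66 and -2.54 with all arrays, between -3.96 and -3.40 and between -2.80 and -2.29. Over all clusters, calls at 21 days numbered 1615 (42.2% higher), against 1066 (57.0% higher) with quantile scaling, 1905 (23.3% higher) with median centring, 831 with the block, 454 with 6 arrays, 15923 with array weights and 4 with the covariate. At 31 days they numbered 16297 (51.7% higher), against 10646 with quantile scaling, 16524 (16.9% higher) with median centring and 7 with the covariate. With no filter they numbered 30065 of 65956 clusters (72.3% higher). That was 45.6% of the clusters tested, beside 43.8% of 37240 in the main fit.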

Other observations

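Other cell markers were measured on the same arrays. Over all clusters, 2.51% were called lower and 1.83% higher at 21 days, and 21.1% lower and 22.6% higher at 31 days. Of 5 basophil and mast cell markers, 5 were lower with MEC1 at 31 days and 0 passed at 21 days, where 0 had an unadjusted p under 0.05 (limma). Of 6 tested markers of the macrophages that nurse erythroblasts, 2 were lower at 21 days, Maf and Trf, and 2 at 31 days. Of 4 megakaryocyte markers, 0 passed at 21 days (limma), where 1 had an unadjusted p under 0.05, and 1 was lower at 31 days. Of 4 tested B cell markers, 1 was higher at 21 days and 2, Cd79a and Pax5, at 31 days. Cd79a was faint: relative to the array median it averaged 0.25 in MEC1 mice and -0.10 in control mice at 31 days. Clusters with a control level up to 4, its class, had a median change of 0.54 that day, and 50.8% were called in either direction. Pax5 averaged 2.62 above the array median in MEC1 mice and 0.83 in control mice.

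The adult globin genes, the main users of heme in red cells, are not described, because their clusters carry several gene symbols. Of the globin list, 1 gene was tested, the embryonic Hbb-y, and it did not pass on either day.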
